A study of Mus musculus with 4 samples.

Results

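The genes examined here were 9 of 32285 in the count matrices of a mouse cortex single-nucleus RNA study: Kcnmb2, Nos1, Bckdhb, Myo16, Inpp4b, Ptprm, Nxph1, Schip1 and Cyb5a. They were listed because earlier results on the same libraries showed a genotype effect in excitatory neurons that differed from the effect in inhibitory neurons. Their effects in these neuron classes and in the subclasses within them are therefore a description: whether one passed the threshold used for all genes is recorded, with no p-value and as no independent test. Tests are given for glia, which the choice did not use. All 9 genes were found by symbol. The question was whether each difference lay within neuron subtypes or came with a different mix of subtypes in the libraries.

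Nuclei came from the cortex of 5-month-old C57BL/6 mice, 2 Setdb1-CK-cKO animals (knockout) and 2 wildtype animals, with 1 10x 3′ library per animal. The knockout is conditional for Setdb1, a histone methyltransferase known for silencing repeats and genes; the labels do not explain CK, so which cells lost the gene is not given. In this gene's own RNA the knockout libraries had 72.1 and 67.2 CPM (counts scaled to a fixed total) and the wildtype libraries 71.5 and 67.1 CPM in excitatory neurons, and 3′ counts do not check a deletion whose exon the labels leave out. By sex-linked RNA, 2 libraries, both knockout, went against their listed sex, and in each genotype replicate 1 had the male and replicate 2 the female pattern. The libraries held 38503740 and 38314394 UMIs (unique RNA molecules counted) in knockout and 45605971 and 42780840 UMIs in wildtype. Kept nuclei numbered 11176 and 13268 in knockout and 13882 and 13712 in wildtype, and any pair of libraries shared 48 to 64 barcodes. Excitatory neurons contributed 5820 and 7239 nuclei in knockout and 6782 and 7276 in wildtype, and inhibitory neurons 908 and 1179 in knockout and 1081 and 1225 in wildtype.

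Excitatory neurons of the cortex release glutamate and are arranged in layers by where their axons go: intratelencephalic (IT), extratelencephalic (ET), near-projecting (NP) and corticothalamic (CT). Inhibitory neurons release GABA and fall into subclasses named for Pvalb, Sst, Vip, Lamp5 and Sncg, which contact different parts of their targets. The 9 genes serve unlike roles, in metabolism, adhesion and the synapse, the cytoskeleton, lipid signalling and excitability. Clusters were named from marker lists, and 2 excitatory clusters without a clear layer are called by their leading genes, Ndst4 Abi3bp and Tshz2 Sncaip.

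CPM scales the UMI count of a gene to a total of 1000000 UMIs over all nuclei of a class in a library. Each effect is given as a log2 fold change (knockout over wildtype) with its standard error, as fitted by the quasi-likelihood method of edgeR to 2 animals per genotype. A gene is called where its Benjamini-Hochberg adjusted p over all genes tested in the class is under 0.05. In excitatory neurons 3.24% of 19139 genes were called up and 1.44% down, and in inhibitory neurons 0.773% of 14100 were called up and 0.277% down. Of the 9 genes, 3 were called up and 2 down in excitatory neurons, and 2 up and 0 down in inhibitory neurons. The term for the difference between the classes was called for all 9, against 0.943% of 18563 genes. It is the contrast they were chosen by, so these counts are no finding.

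**Figure D1:**
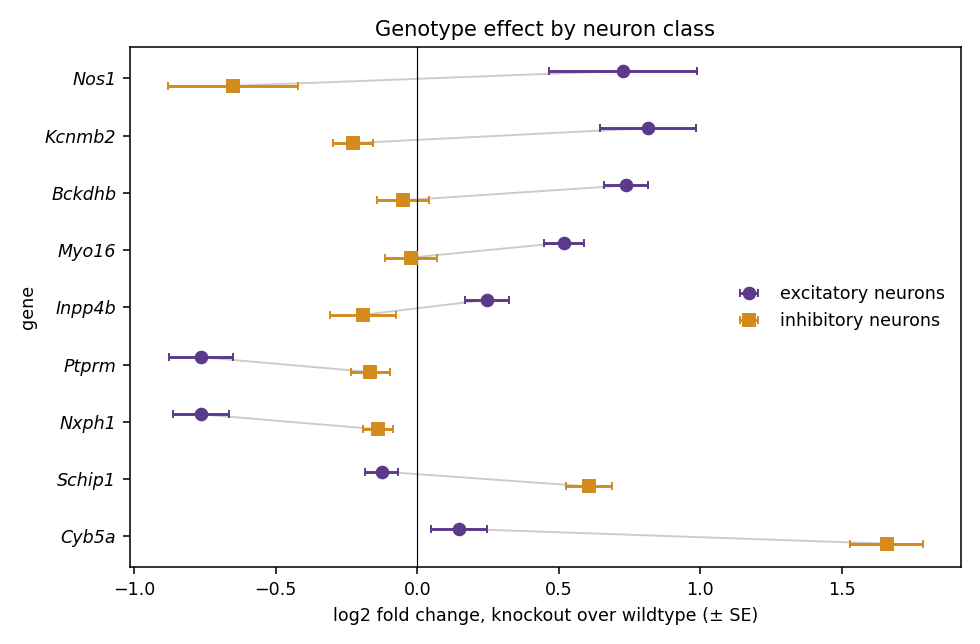
Log2 fold change, knockout over wildtype, of the 9 genes in excitatory neurons (circles) and inhibitory neurons (squares), with standard errors as bars. Nos1 and Kcnmb2 lie above 0 in excitatory and below 0 in inhibitory neurons, and Cyb5a lies furthest to the right, at 1.66 in inhibitory neurons against 0.15 in excitatory neurons.

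The promoters of genes called in 3 or more excitatory subclasses, Bckdhb, Myo16 and Ptprm, are shown because the following results turn on them. Each line spans 250 bases before to 50 bases after a RefSeq start on GRCm38.p6, 5′ to 3′ on the gene's strand, with the GC box GGGCGG and its reverse complement CCGCCC in capitals. Bckdhb has 2 annotated starts, and 3′ counts cannot assign its RNA to either.
Bckdhb, first start, chr9:83924887-83925186, plus strand: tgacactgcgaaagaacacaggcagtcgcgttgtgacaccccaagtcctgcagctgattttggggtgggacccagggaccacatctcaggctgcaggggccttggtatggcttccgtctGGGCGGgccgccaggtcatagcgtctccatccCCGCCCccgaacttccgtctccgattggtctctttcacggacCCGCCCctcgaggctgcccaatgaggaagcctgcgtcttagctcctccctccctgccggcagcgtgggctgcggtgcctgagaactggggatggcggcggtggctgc
Bckdhb, second start, chr9:83948531-83948830, plus strand: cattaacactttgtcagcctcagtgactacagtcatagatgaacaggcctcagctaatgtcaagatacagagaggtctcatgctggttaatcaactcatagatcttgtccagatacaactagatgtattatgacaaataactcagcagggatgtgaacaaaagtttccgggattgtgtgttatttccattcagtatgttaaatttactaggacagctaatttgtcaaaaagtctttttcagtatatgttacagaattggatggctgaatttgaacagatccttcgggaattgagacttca
Myo16, chr8:10153661-10153960, plus strand: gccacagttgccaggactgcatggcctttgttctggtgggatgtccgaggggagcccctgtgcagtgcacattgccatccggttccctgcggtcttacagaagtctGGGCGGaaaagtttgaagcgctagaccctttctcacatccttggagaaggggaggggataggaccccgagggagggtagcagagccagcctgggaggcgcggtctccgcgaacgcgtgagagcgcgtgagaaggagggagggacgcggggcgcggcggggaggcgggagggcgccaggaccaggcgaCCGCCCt
Ptprm, chr17:67354410-67354709, minus strand: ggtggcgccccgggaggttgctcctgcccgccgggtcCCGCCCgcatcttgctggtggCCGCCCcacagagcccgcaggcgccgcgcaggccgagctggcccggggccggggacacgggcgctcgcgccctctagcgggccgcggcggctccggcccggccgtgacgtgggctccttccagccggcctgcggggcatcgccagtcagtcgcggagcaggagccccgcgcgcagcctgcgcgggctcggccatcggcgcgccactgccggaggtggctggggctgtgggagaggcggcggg

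Windows were found for 8 of the 9 genes, all but Cyb5a, 11 in all, and 6 windows held GGGCGG or its complement. Among all 32851 RefSeq windows of the same length 35.7% held it. TATAAA, searched on both strands, was in 0 of the 11 windows and in 13.6% of all windows. The first start of Bckdhb held the GC box 3 times and the second start 0 times, and Myo16 and Ptprm held it 2 times each. A match describes the letters alone.

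Over 15 neuron subclasses, 18 of 126 effects tested for the 9 genes were called, 13 up and 5 down, against 1.69% of all gene effects tested in the same subclasses. Since the subclasses hold the nuclei by which the genes were chosen, that count is a description. Below, groups are apart where the knockout and wildtype libraries did not overlap. Counts of subclasses or sub-clusters with the groups apart are a description too, as they come from the same 4 libraries. How often groups were apart over all genes is not given, so these counts are no replication. Among all genes of a subclass, the share called up was 0.387% in the Ndst4 Abi3bp cluster, 2.63% in L5 IT, 1.37% in L5 ET, 0.969% in L5/6 NP, 1.08% in L2/3 IT, 1.25% in L4/5 IT and 2.46% in L6 CT neurons. It was 0.511% in Sst, 0.641% in Pvalb and 0.35% in Lamp5 neurons. The share called down was 0.58% in L4/5 IT, 1.79% in L5 IT, 0.418% in L5 ET, 0.544% in L5/6 NP and 0.97% in L6 CT neurons.

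Bckdhb encodes the beta subunit of the branched-chain alpha-keto acid dehydrogenase, the mitochondrial enzyme that commits branched-chain amino acids to breakdown. It lies at chr9:83925145-84124240 on the plus strand of GRCm38. In excitatory neurons it measured 98.9 and 94.9 CPM in knockout and 57.4 and 56.5 CPM in wildtype, a rise of 0.74 ± 0.08. In inhibitory neurons it measured 127 and 117 CPM in knockout and 126 and 124 CPM in wildtype (-0.05 ± 0.09). The excitatory groups were apart and the inhibitory groups overlapped. By wildtype means this gene stood higher in each of Pvalb, Lamp5, Sst, Sncg and Vip neurons than in any excitatory subclass.

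The Bckdhb rise was greatest in the Ndst4 Abi3bp cluster, with 264 and 349 CPM in knockout against 68.9 and 65.4 CPM in wildtype (2.12 ± 0.17). L5 IT neurons had 102 and 103 CPM in knockout and 43.03 and 48.7 CPM in wildtype (1.13 ± 0.11). Each knockout library was above each wildtype library in 9 of 10 excitatory subclasses, and L6b neurons, the exception, had 63.2 and 50.9 CPM in knockout and 67.2 and 67.2 CPM in wildtype. It was also called in L5/6 NP (1.09 ± 0.22; 142 and 238 CPM in knockout, 77.96 and 97.6 CPM in wildtype) and in L5 ET neurons (0.58 ± 0.13). The L5/6 NP call was lost without knockout replicate 2, at 0.65, or without wildtype replicate 1, at 0.92, and the L5 ET call without knockout replicate 1, at 0.36, or without either wildtype library. Neither of these was called with DESeq2, at 1.10 and 0.58. The L5 ET call was also lost without the nuclei of highest doublet score, at 0.59, or with clusters made with the 9 genes, at 0.54. The Ndst4 Abi3bp cluster held 8.26% and 3.81% of excitatory nuclei in knockout and 6.77% and 6.83% in wildtype, so the knockout libraries lay on either side. It gave 24.1% and 13.8% of excitatory Bckdhb UMIs in knockout and 9.19% and 8.79% in wildtype. Without this cluster, excitatory Bckdhb measured 82.5 and 85.0 CPM in knockout and 56.5 and 55.7 CPM in wildtype, a log2 ratio of means of 0.58.

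After each nucleus was thinned to 1000 UMIs, Bckdhb was seen in 21.6% and 23.9% of knockout nuclei of that cluster and in 6.75% and 5.24% of wildtype nuclei. Without thinning the shares were 59.9% and 55.1% in knockout and 28.3% and 23.3% in wildtype, at median depths of 4387 and 3048.5 UMIs in knockout and 4570.0 and 4070.0 UMIs in wildtype. Oligodendrocytes, thinned alike from median depths of 864 to 1030.0 UMIs, so that 410 to 908 nuclei per library were deep enough, had it in 7.90% and 8.78% of knockout nuclei and 7.27% and 7.23% of wildtype nuclei. The wildtype share in the cluster was thus at or below that of a glial class, and the knockout share above it. A predicted RNA on the other strand, Gm46124, overlaps Bckdhb. It measured 52.3 and 50.3 CPM in knockout and 24.9 and 22.7 CPM in wildtype excitatory neurons (1.08 ± 0.10). In inhibitory neurons it measured 67.1 and 75.3 CPM in knockout and 61.3 and 62.7 CPM in wildtype (0.18 ± 0.12). As Bckdhb was chosen by the contrast of these classes, these values are a description. Whether strand was used in counting is not given in the sources used here, so how far the counts of Bckdhb and Gm46124 are separate was not tested.

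Myo16 (chr8:10153911-10634742, plus strand) encodes an unconventional myosin that binds the WAVE complex, a driver of actin branching. Excitatory neurons had 227 and 229 CPM in knockout and 155 and 157 CPM in wildtype, a rise of 0.52 ± 0.07. Inhibitory neurons had 289 and 263 CPM in knockout and 267 and 285 CPM in wildtype (-0.02 ± 0.09), and these groups overlapped. Its rise was called in 4 excitatory subclasses. In L2/3 IT neurons Myo16 had 222 and 229 CPM in knockout and 112 and 122 CPM in wildtype (0.93 ± 0.09). L5 IT neurons had 214 and 221 CPM in knockout and 112 and 115 CPM in wildtype (0.91 ± 0.09). The layer with the most Myo16 in wildtype, L4/5 IT, had a smaller rise, 0.41 ± 0.09, with 596 and 567 CPM in knockout and 442 and 419 CPM in wildtype. L6 CT neurons, which had little Myo16, reached 45.8 and 43.8 CPM in knockout against 24.4 and 28.1 CPM in wildtype (0.76 ± 0.16). The L4/5 IT call was lost without knockout replicate 1, at 0.38, without wildtype replicate 2, at 0.37, or with clusters made with the 9 genes, at 0.36. The L6 CT call was lost without either wildtype library, at 0.66 and 0.85, with no low-count filter, at 0.75, or with DESeq2, at 0.76. The groups were apart in 8 of 10 excitatory subclasses, knockout above in each, and overlapped in L6b and the Ndst4 Abi3bp cluster. In Sst neurons Myo16 measured 333 and 343 CPM in knockout and 280.1 and 318 CPM in wildtype (0.15 ± 0.12), and in Pvalb neurons 347 and 312 CPM in knockout and 338 and 328 CPM in wildtype (-0.03 ± 0.12).

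Ptprm (chr17:66666947-67354457, minus strand) encodes a receptor tyrosine phosphatase that binds its own kind on neighbouring cells. In wildtype it was highest in Lamp5 neurons, at 2255 and 2225 CPM, followed by Pvalb, Sst and Sncg neurons. Vip neurons, at 37.4 and 71.3 CPM, lay below L4/5 IT and L5 IT neurons. Excitatory neurons had 59.9 and 46.99 CPM in knockout and 91.9 and 85.9 CPM in wildtype, a log2 fold change of -0.76 ± 0.11, called down. Inhibitory neurons had 1047 and 912 CPM in knockout and 1082 and 1086 CPM in wildtype (-0.17 ± 0.07). Both knockout libraries lay below both wildtype libraries in either class. With no low-count filter the excitatory effect was -0.77 and no longer called. L4/5 IT neurons had 128 and 83.95 CPM in knockout and 214 and 199 CPM in wildtype (-0.98 ± 0.15). L5 IT neurons had 162 and 118 CPM in knockout and 210.0 and 188 CPM in wildtype (-0.53 ± 0.12), and L5 ET neurons 52.9 and 40.6 CPM in knockout and 65.3 and 82.3 CPM in wildtype (-0.65 ± 0.17). All 3 were called, and the groups were apart, knockout below, in 9 of 10 excitatory subclasses, with overlap in Car3 neurons. The L5 IT call was lost without knockout replicate 2, at -0.34, without wildtype replicate 1, at -0.45, or with no low-count filter, at -0.54. The L5 ET call was lost without knockout replicate 2, at -0.50, without wildtype replicate 2, at -0.49, or with DESeq2, at -0.65. It was also lost with DESeq2 size factors, at -0.65, or without the nuclei of highest doublet score, at -0.70. Pvalb, Sst and Lamp5 neurons had estimates of -0.16 ± 0.08, -0.26 ± 0.09 and -0.24 ± 0.09, all uncalled.

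Nxph1 (chr6:8948431-9249032, plus strand) encodes neurexophilin 1, a secreted ligand of alpha-neurexins. It was abundant in Sst, Pvalb and Lamp5 neurons and, among excitatory neurons, in the L5/6 NP subclass, where the knockout libraries had 632 and 557 CPM and the wildtype libraries 1049.8 and 1200.5 CPM, a log2 fold change of -0.94 ± 0.12, called down. Excitatory neurons as a whole had 31.7 and 29.5 CPM in knockout and 49.6 and 52.3 CPM in wildtype (-0.76 ± 0.10), also called. Inhibitory neurons had 1500.5 and 1522 CPM in knockout and 1632 and 1654 CPM in wildtype (-0.14 ± 0.05). L5/6 NP nuclei, 2.58% and 2.35% of excitatory nuclei in knockout and 2.88% and 2.67% in wildtype, gave 35.0% and 30.2% of excitatory Nxph1 UMIs in knockout and 40.8% and 41.1% in wildtype. Without them the excitatory level was 20.995 and 20.9 CPM in knockout and 30.0 and 31.4 CPM in wildtype, a log2 ratio of means of -0.55. These low levels were no higher than in oligodendrocytes, with 42.5 and 29.6 CPM in knockout and 55.2 and 56.2 CPM in wildtype. Both knockout libraries lay below both wildtype libraries in 8 of 10 excitatory subclasses, and all 10 estimates were negative. At such low levels the estimates were -1.20 ± 0.31 in the Ndst4 Abi3bp cluster and -1.03 ± 0.31 in the Tshz2 Sncaip cluster, both uncalled. L6 CT neurons were called at such a level (-0.71 ± 0.19). That call was lost when any 1 library was left out, with no low-count filter, with DESeq2 or with clusters made with the 9 genes. In the L5/6 NP subclass the summed inhibitory markers overlapped, at 133 and 106 CPM in knockout and 111 and 125 CPM in wildtype.

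**Figure D2:**
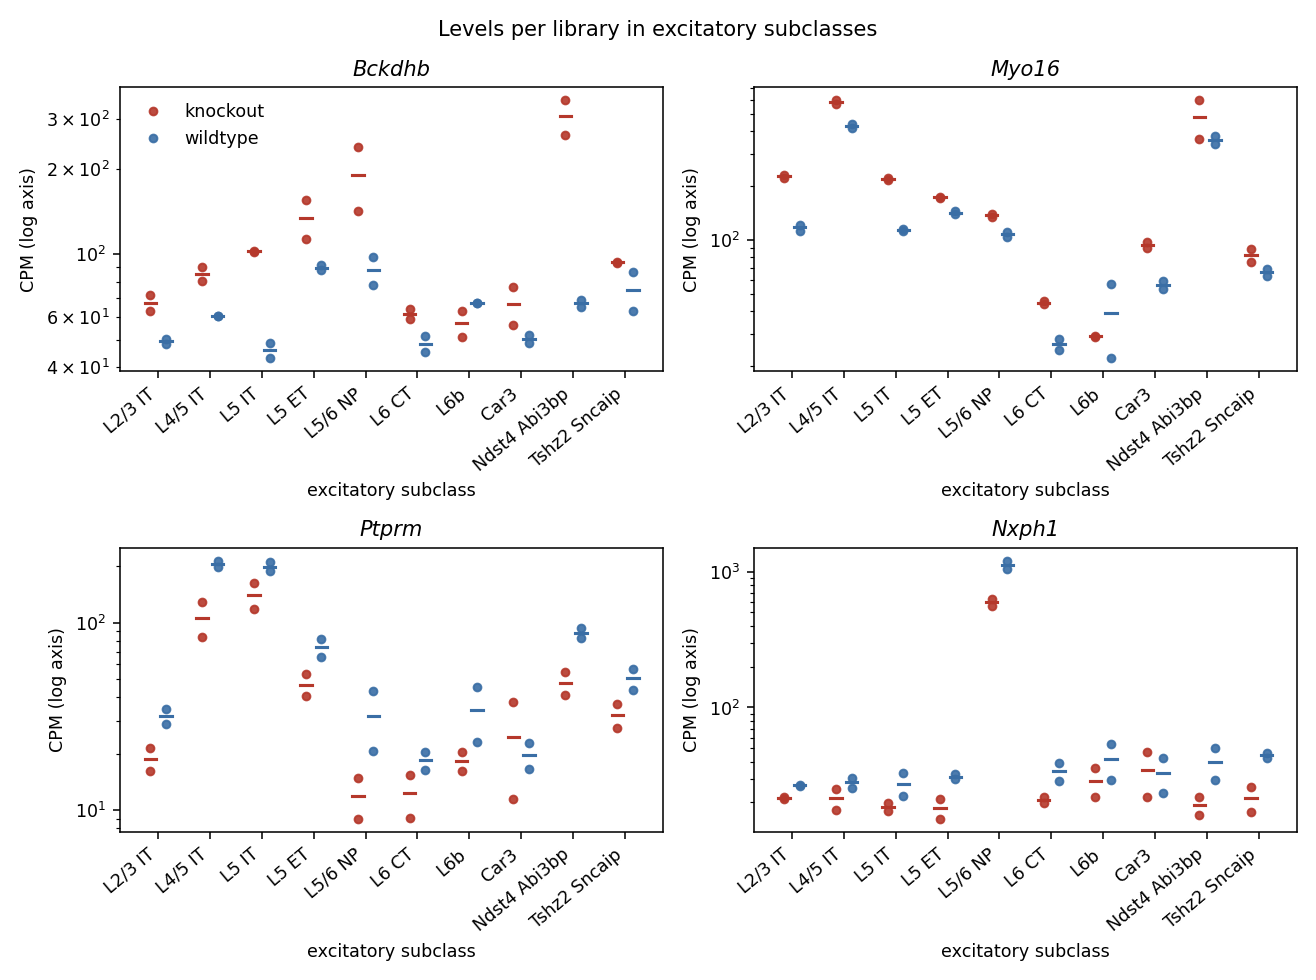
CPM on a log axis of Bckdhb, Myo16, Ptprm and Nxph1 in 10 excitatory subclasses, with knockout left of wildtype, 1 point per library and a bar at the mean. Bckdhb has its largest effect in the Ndst4 Abi3bp cluster, at 264 and 349 CPM in knockout against 68.9 and 65.4 CPM in wildtype. Nxph1 has its highest levels in L5/6 NP neurons, at 632 and 557 CPM in knockout against 1049.8 and 1200.5 CPM in wildtype, and lies lower in knockout in 8 of 10 subclasses.

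Inpp4b (chr8:81342556-82127914, plus strand), which encodes a lipid phosphatase that acts on a phosphoinositide product of PI3 kinase, measured 181 and 189 CPM in knockout and 147 and 159.6 CPM in wildtype excitatory neurons (0.25 ± 0.08). In inhibitory neurons it measured 143 and 173 CPM in knockout and 164 and 192 CPM in wildtype (-0.19 ± 0.12). It was called in neither class, though it was in excitatory neurons without knockout replicate 1, at 0.28, and the inhibitory groups overlapped. By wildtype means L6b neurons had the most Inpp4b, with overlapping levels, 1044 and 1055 CPM in knockout and 952 and 1093 CPM in wildtype (0.02 ± 0.10). The groups were apart, knockout above, in 4 of 10 excitatory subclasses, L2/3 IT among them (0.63 ± 0.13), with 155 and 183 CPM in knockout and 96.8 and 119 CPM in wildtype. The L2/3 IT effect was uncalled, but called with DESeq2, at 0.63, or without either knockout library, at 0.76 and 0.48. In the interneurons left unnamed, where effects were not tested, Inpp4b had 563 and 611 CPM in knockout and 713 and 1246 CPM in wildtype. These groups were apart, knockout below, and wildtype replicate 2 was above every L6b library. Among the 5 named interneuron subclasses the estimate furthest from 0 was -0.16 ± 0.13, in Pvalb neurons.

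Kcnmb2 (chr3:31902507-32200180, plus strand) encodes an auxiliary subunit of the BK channel, which lets potassium out when voltage and calcium rise. It was an interneuron gene, at 786 and 760.3 CPM in knockout and 934 and 850.4 CPM in wildtype inhibitory neurons (-0.23 ± 0.07, uncalled). Excitatory neurons had far less, 20.2 and 29.1 CPM in knockout and 13.3 and 14.3 CPM in wildtype (0.81 ± 0.17, called up). The effect was 0.51 without knockout replicate 2, and still called, and the call was lost with no low-count filter, at 0.81. L2/3 IT neurons had 25.3 and 53.5 CPM in knockout and 12.01 and 15.7 CPM in wildtype (1.5 ± 0.33), apart but uncalled, with the knockout libraries far from each other. This effect was called without either of them, at 1.94 without knockout replicate 1 and 0.81 without knockout replicate 2, and with no low-count filter. They gave 37.5% and 66.2% of excitatory Kcnmb2 UMIs in knockout and 23.4% and 33.6% in wildtype, and the excitatory log2 ratio without them was 0.29. Oligodendrocytes had 7.42 and 8.22 CPM in knockout and 13.7 and 14.6 CPM in wildtype, lower but uncalled (-0.83 ± 0.35, edgeR adjusted p = 0.296). These came from 11 and 10 UMIs in knockout and 27 and 28 in wildtype. Astrocytes overlapped, at 10.3 and 24.7 CPM in knockout and 13.6 and 12.3 CPM in wildtype (0.46 ± 0.40, adjusted p = 0.767). Summed inhibitory markers in oligodendrocytes were 987 and 931 CPM in knockout and 1061 and 997 CPM in wildtype, and their part was not tested. After thinning, Kcnmb2 was seen in 1.91% and 4.53% of knockout and 1.46% and 1.43% of wildtype L2/3 IT nuclei, against 0.803% and 0.732% of knockout and 1.76% and 1.57% of wildtype oligodendrocytes. Without thinning the L2/3 IT shares were 7.54% and 11.9% in knockout and 5.05% and 5.27% in wildtype. The thinned wildtype L2/3 IT share was therefore no higher than the glial share. Sncg neurons, with 207 and 274 CPM in knockout and 86.5 and 162 CPM in wildtype (0.94 ± 0.31, uncalled), were the 1 named interneuron subclass with a positive effect.

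Nos1 (chr5:117781032-117958840, plus strand) encodes neuronal nitric oxide synthase, which a sparse set of Sst neurons is known to express strongly. In excitatory neurons it measured 11.5 and 20.6 CPM in knockout and 7.88 and 11.2 CPM in wildtype (0.73 ± 0.26), and in inhibitory neurons 26.5 and 45.8 CPM in knockout and 46.1 and 66.6 CPM in wildtype (-0.65 ± 0.23). Neither was called. The knockout libraries were far from each other, and the lower one in excitatory neurons lay just above the higher wildtype library. Replicate 2, with the female pattern, held more Nos1 than replicate 1 in both classes of either genotype. Between libraries of the same pattern, Nos1 was higher in knockout in excitatory neurons and lower in inhibitory neurons. The effect without 1 library ranged over 0.23 to 1.09 in excitatory and -1.12 to -0.30 in inhibitory neurons, with both ends of each range set by leaving out a knockout library. It was called up in excitatory neurons without knockout replicate 1 or wildtype replicate 2, and down in inhibitory neurons without wildtype replicate 1. Oligodendrocytes, set beside these low excitatory levels, had 6.74 and 13.2 CPM in knockout and 7.09 and 8.32 CPM in wildtype. Sst neurons had 43.1 and 100.4 CPM in knockout and 107 and 186 CPM in wildtype (-1.04 ± 0.28, uncalled). The groups did not overlap. A single Sst sub-cluster, found without using Nos1 but led by it, held 7 and 21 nuclei in knockout and 14 and 18 in wildtype and gave 24 of 42 and 82 of 101 Sst UMIs of Nos1 in knockout and 100 of 117 and 186 of 201 in wildtype. Within it the level was 1017 and 1197 CPM in knockout and 1818 and 2323 CPM in wildtype. The Sst neurons outside it had 18.9 and 20.3 CPM in knockout and 16.3 and 14.96 CPM in wildtype, so the lower Sst level of Nos1 rested on a sub-cluster of 7 to 21 nuclei per library.

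**Figure D3:**
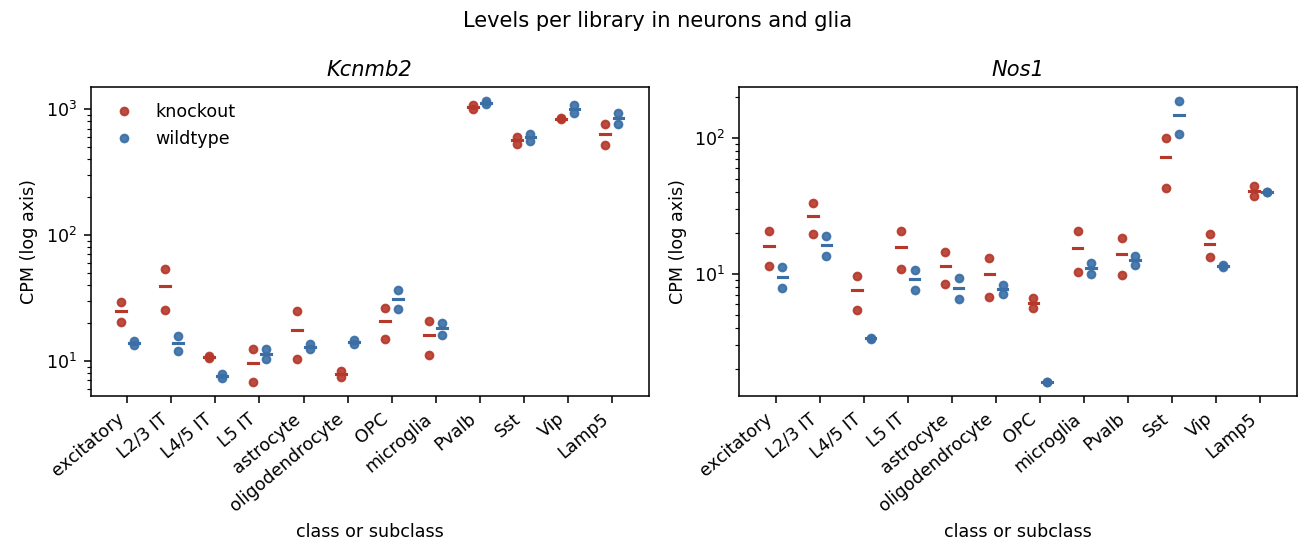
CPM on a log axis of Kcnmb2 and Nos1 in excitatory neurons, 3 IT layers, 4 glial classes and 4 interneuron subclasses, with knockout left of wildtype, 1 point per library and a bar at the mean. Excitatory levels of Nos1 (11.5 and 20.6 CPM in knockout, 7.88 and 11.2 CPM in wildtype) lie in the range of glia apart from knockout replicate 2, just above it, and those of Sst neurons lie above.

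Cyb5a (chr18:84838704-84879871, plus strand) encodes cytochrome b5 of the endoplasmic reticulum, an electron donor to fatty acid desaturases and cytochrome P450 enzymes. Inhibitory neurons had 98.7 and 97.7 CPM in knockout and 28.9 and 32.4 CPM in wildtype, a rise of 1.66 ± 0.13. Excitatory neurons had 42.4 and 44.6 CPM in knockout and 39.3 and 37.7 CPM in wildtype (0.15 ± 0.10). In wildtype no neuron subclass stood out: means ran between 17.2 CPM in Vip and 55.2 CPM in L5/6 NP neurons, and most neighbours in that order overlapped. Sst neurons had 189.9 and 154 CPM in knockout and 31.02 and 36.02 CPM in wildtype (2.33 ± 0.18), and Pvalb neurons 82.1 and 99.4 CPM in knockout and 26.3 and 28.6 CPM in wildtype (1.71 ± 0.20). Lamp5 neurons had 37.4 and 49.7 CPM in knockout and 31.7 and 43.7 CPM in wildtype (0.17 ± 0.33), with overlap. Vip and Sncg neurons had too few UMIs to be tested, at 30.9 and 23.8 CPM in knockout and 21.03 and 13.4 CPM in wildtype and at 41.3 and 66.4 CPM in knockout and 50.4 and 53.9 CPM in wildtype. Knockout libraries lay above wildtype in 4 of 4 Sst and 5 of 5 Pvalb sub-clusters, and in 1 of 2 Vip and 1 of 2 Lamp5 sub-clusters. These sub-clusters split the nuclei by which Cyb5a was chosen, so the counts are no replication. Some rested on few UMIs, such as 15 and 26 in knockout and 0 and 8 in wildtype in a Pvalb sub-cluster. Cyb5a was seen in 14.04% and 14.4% of thinned knockout and 5.00% and 1.61% of thinned wildtype Sst nuclei, and before thinning in 43.6% and 37.3% in knockout and 11.4% and 12.3% in wildtype. In thinned oligodendrocytes the shares were 7.095% and 8.05% in knockout and 6.39% and 5.06% in wildtype, so the wildtype Sst share was at or below theirs. Whether the Sst and Pvalb effects differ from the Lamp5 effect was not tested. Summed microglial markers were also higher in knockout inhibitory neurons, at 131 and 141 CPM in knockout and 101 and 119 CPM in wildtype, with 2 of 5 markers apart and above, 3 overlapping and none at 0. Astrocyte markers summed to 173 and 179 CPM in knockout and 232 and 255 CPM in wildtype, 4 of 5 apart and below, and oligodendrocyte markers to 160.5 and 168 CPM in knockout and 203 and 218 CPM in wildtype, 3 of 5 apart and below. The 5 inhibitory markers themselves summed to 5526 and 5035 CPM in knockout and 5964 and 5699 CPM in wildtype, 1 apart and below. Microglia held 76.3 and 93.2 CPM of Cyb5a in knockout and 64.2 and 36.3 CPM in wildtype, in knockout a level below that of Sst neurons and overlapping that of Pvalb neurons. The part of these markers in the result was not tested.

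Schip1 (chr3:68064802-68626481, plus strand) encodes a protein of the axon initial segment and the node of Ranvier that binds ankyrin. Inhibitory neurons had 625 and 633 CPM in knockout and 386 and 429 CPM in wildtype, a rise of 0.61 ± 0.08. Excitatory neurons, which held more, had 1130.2 and 1074 CPM in knockout and 1177 and 1180.4 CPM in wildtype (-0.13 ± 0.06). Knockout lay above wildtype in 5 of 5 named interneuron subclasses, and the unnamed interneurons overlapped. Sst neurons had 1391 and 1371 CPM in knockout and 854 and 905 CPM in wildtype (0.63 ± 0.08, called). Lamp5 neurons had 340.4 and 466 CPM in knockout and 205 and 209 CPM in wildtype (0.94 ± 0.18, called, but not with DESeq2, at 0.95, or without knockout replicate 2, at 0.69). Pvalb, Vip and Sncg neurons were higher by 0.50 ± 0.14, 0.32 ± 0.16 and 0.31 ± 0.24, uncalled. Among excitatory neurons, L5/6 NP went with the interneurons, with 454 and 601 CPM in knockout and 307 and 248 CPM in wildtype (0.91 ± 0.16, called). The other 9 excitatory subclasses had negative estimates, the lowest in the Ndst4 Abi3bp cluster (-0.30 ± 0.11), all uncalled. Summed excitatory markers in inhibitory neurons overlapped, at 185 and 222 CPM in knockout and 204 and 263 CPM in wildtype. Without either knockout library neither Cyb5a nor Schip1 was called in inhibitory neurons, at 1.67 and 1.65 for Cyb5a and 0.63 and 0.58 for Schip1; no gene of that class was then called. With no low-count filter both calls were also lost in inhibitory neurons, at 1.65 and 0.60, and in Sst neurons, at 2.32 and 0.62.

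**Figure D4:**
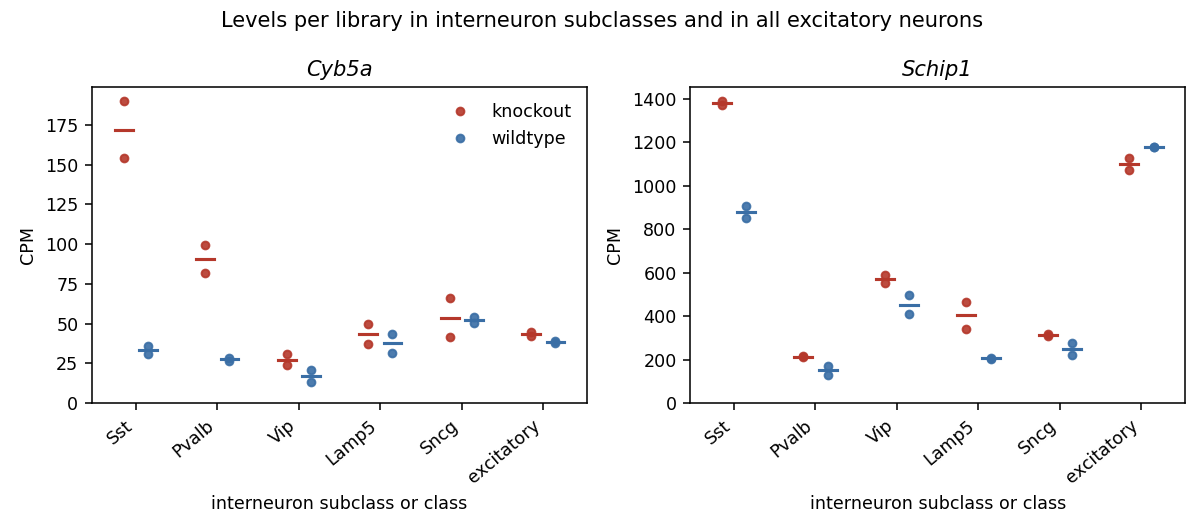
CPM of Cyb5a and Schip1 in 5 interneuron subclasses and in all excitatory neurons, with knockout left of wildtype, 1 point per library and a bar at the mean. Cyb5a is at 189.9 and 154 CPM in knockout against 31.02 and 36.02 CPM in wildtype Sst neurons and overlaps in Lamp5 neurons, while Schip1 is higher in knockout in each interneuron subclass.

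The mix of subclasses was then separated from the change within them. The CPM of each subclass was weighted by its mean wildtype share of UMIs in every library, which fixes the mix; separately, wildtype levels were given each genotype's own mix, which leaves the mix alone. The mix alone gave log2 ratios of knockout over wildtype between -0.09 and 0.08 for the 9 genes in excitatory neurons and between -0.05 and 0.06 in inhibitory neurons. These ratios average the shares of the knockout libraries, which for the Ndst4 Abi3bp cluster lay on either side of wildtype. Fixing it moved the observed log2 ratio of means by at most 0.106 in excitatory neurons, for Nos1, and by at most 0.0546 in inhibitory neurons, for Ptprm. For Cyb5a the inhibitory log2 ratio was 1.68 as observed and 1.70 at the fixed mix, for Schip1 0.63 and 0.60. Excitatory Bckdhb had 0.77 as observed and 0.84 at the fixed mix, Myo16 0.55 and 0.62, Ptprm -0.73 and -0.69, and Nxph1 -0.74 and -0.68. With clusters in place of subclasses some ratios moved more. Excitatory Kcnmb2 had 0.57, where 0.84 was observed, excitatory Nos1 0.51, where 0.75 was observed, and inhibitory Nos1 -0.49, where -0.64 was observed. The 11 excitatory clusters differed from the 10 subclasses in splitting L2/3 IT neurons. The L2/3 IT cluster led by Otof held 703 and 1166 nuclei in knockout and 527 and 782 in wildtype. The one led by Ccbe1 held 929 and 1205 in knockout and 1135 and 1326 in wildtype. L2/3 IT effects can thus hold a shift in mix between these clusters, which was not tested. No sign changed among the excitatory ratios, and among the inhibitory ones only those of Myo16 and Bckdhb, both close to 0, did.

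**Figure D5:**
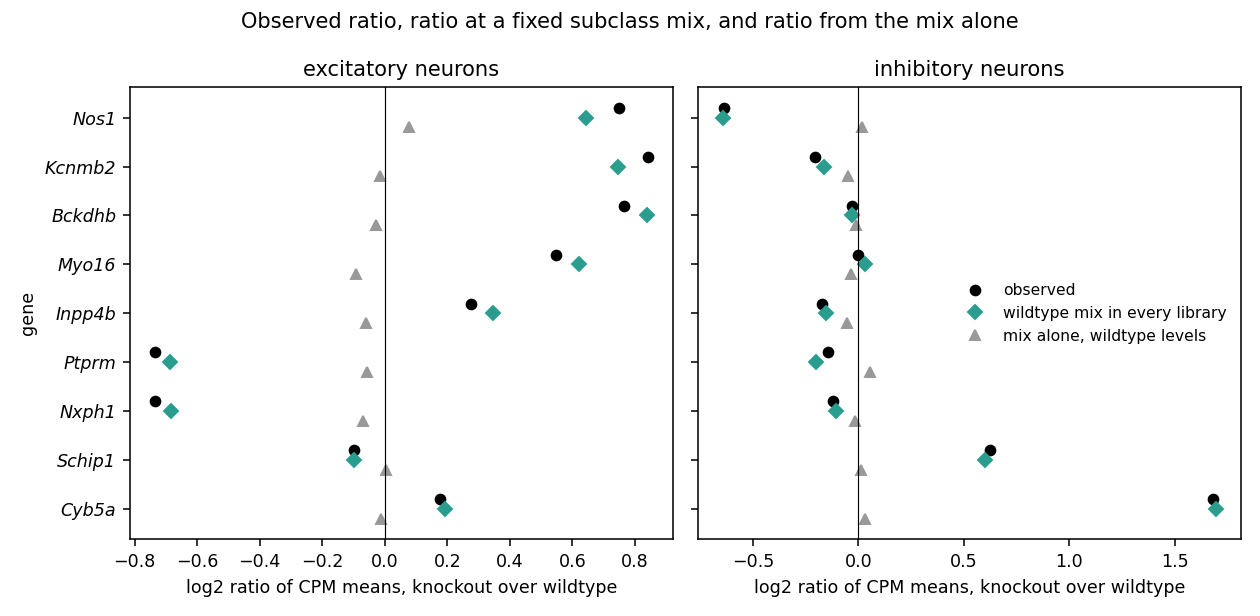
Log2 ratio of mean CPM, knockout over wildtype, for the 9 genes in excitatory (left) and inhibitory neurons (right): as observed, with the wildtype subclass mix in every library, and from the mix alone at wildtype levels. The mix-alone points stay between -0.09 and 0.08, while the fixed-mix points lie within 0.106 of the observed ones.

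The subclass shares themselves were tested, since the choice of genes did not use them. Shares of nuclei differed in 0 of 10 excitatory and 0 of 6 inhibitory subclasses, unnamed interneurons counted as 1 (edgeR quasi-likelihood, lowest adjusted p = 0.468 and 0.4155), and 0 had an unadjusted p under 0.05. DESeq2 called 0 excitatory subclasses and 1 inhibitory subclass, Sncg (log2 fold change 0.57, adjusted p = 0.0474). L2/3 IT nuclei made up 28.04% and 32.8% in knockout and 24.5% and 28.97% in wildtype, L4/5 IT nuclei 12.7% and 12.03% in knockout and 15.7% and 13.5% in wildtype, and Lamp5 nuclei 18.8% and 16.4% of inhibitory nuclei in knockout and 13.3% and 16% in wildtype. Between libraries of the same sex-linked pattern, the L2/3 IT share was higher in knockout in both.

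Markers of other cells also moved in excitatory neurons, and their part in the results was not tested. The summed level of 5 inhibitory markers was 120 and 98.8 CPM in knockout and 121 and 136 CPM in wildtype, with 1 marker apart and below and 4 overlapping; it was lower along with Nxph1 and Ptprm. For 5 astrocyte markers it was 401 and 372 CPM in knockout and 484 and 496 CPM in wildtype, 3 apart and below. For 5 oligodendrocyte markers it was 164 and 161 CPM in knockout and 174 and 186 CPM in wildtype, 2 apart and below and 1 apart and above. The 5 excitatory markers themselves summed to 814 and 853 CPM in knockout and 888 and 900 CPM in wildtype, 3 apart and below. Microglial markers were higher in knockout, at 123 and 139 CPM, against 95.8 and 108 CPM in wildtype, 2 of 5 apart and above. None of these markers was at 0. Knockout Bckdhb in the Ndst4 Abi3bp cluster lay above its level in every microglial library, 101 and 68.9 CPM in knockout and 88.3 and 46.4 CPM in wildtype.

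In glia, which took no part in the choice, 33 effects of the 9 genes could be tested in astrocytes, oligodendrocytes, oligodendrocyte precursors and microglia. None was called, against 0.409% of all effects tested there, and 10 had an unadjusted p under 0.05 (edgeR quasi-likelihood, n = 2 per genotype). Across all genes 4660 of 42749 glial effects had such a p. The smallest was for Nxph1 in microglia, with 18.6 and 40.99 CPM in knockout and 66.2 and 70.6 CPM in wildtype (-1.16 ± 0.34, adjusted p = 0.183, lower in 2 of 2 knockout libraries). In oligodendrocyte precursors, which express Nxph1 strongly, it had 1622 and 1516 CPM in knockout and 1717 and 1765 CPM in wildtype (-0.15 ± 0.10, adjusted p = 0.769). Ptprm in oligodendrocytes had 88.3 and 79.8 CPM in knockout and 128 and 109 CPM in wildtype (-0.47 ± 0.15, adjusted p = 0.152). Cyb5a was higher in both knockout libraries, uncalled, in each of the 4 glial classes, with log2 fold changes of 0.19 to 0.76 and adjusted p between 0.291 and 0.823. Myo16 in astrocytes had 56.3 and 93.4 CPM in knockout and 45.3 and 45.01 CPM in wildtype (0.74 ± 0.24, adjusted p = 0.331). Bckdhb, the gene with the highest effect in an excitatory subclass, had 70.1 and 83.9 CPM in knockout and 78.5 and 76.5 CPM in wildtype oligodendrocytes (0.00 ± 0.16, adjusted p = 0.996). In astrocytes it had 104 and 125 CPM in knockout and 102 and 86.3 CPM in wildtype, apart and higher in knockout (0.28 ± 0.18, adjusted p = 0.659). In microglia its groups overlapped (0.33 ± 0.29, adjusted p = 0.732).

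A cluster of 2152 neurons led by Meis2 and Pbx3 was kept outside both classes and tested after the clusters had been seen. Each of the 5 inhibitory markers was seen in at least 5% of its nuclei, so the inhibitory class here leaves out a group with these markers. No gene of 11413 (0%) was called there by edgeR (495 had an unadjusted p under 0.05), and none of the 9. Cyb5a had 46.5 and 56.5 CPM in knockout and 24.2 and 33.7 CPM in wildtype (0.79 ± 0.28, adjusted p = 0.981). Bckdhb, at 74.9 and 82.8 CPM in knockout and 44.0 and 61.0 CPM in wildtype (0.55 ± 0.24, adjusted p = 0.981), was also apart and higher in knockout. So was Kcnmb2, at 107 and 78.0 CPM in knockout and 70.5 and 58.4 CPM in wildtype (0.45 ± 0.24, adjusted p = 0.981). The other genes overlapped, Schip1 among them, at 335 and 1109 CPM in knockout and 799 and 738 CPM in wildtype (-0.14 ± 0.49, adjusted p = 0.999).

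Other genes of the same pathways, on 9 lists, were chosen with earlier results of these data known. Their counts, and the p-values below of genes on these lists, are therefore a description and no independent test. Of 128 such genes tested in excitatory neurons, 0 rose and 12 fell (9.38%). Among all genes 4.69% were called in either direction, 3.24% up and 1.44% down. The median log2 fold change of the listed genes was -0.09, against 0.00 over all genes. In inhibitory neurons 0 of 122 rose and 2 fell, against 1.05% of all genes called. Kcnma1, the pore of the BK channel, fell in both classes: 1723 and 1579.7 CPM in knockout and 2009 and 2025 CPM in wildtype excitatory neurons (-0.32 ± 0.06, edgeR adjusted p = 0.0153), and -0.29 ± 0.06 in inhibitory neurons (adjusted p = 0.0425). Its partner Kcnmb2 was thus higher where the pore gene was lower in excitatory neurons. Of 16 genes of nitric oxide and cyclic GMP signalling 4 fell in excitatory neurons, among them Nos1ap, an adaptor of the synthase (-0.36 ± 0.07, adjusted p = 0.0274) and the phosphodiesterase gene Pde10a (-0.42 ± 0.09, adjusted p = 0.0348).

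Of 17 genes of branched-chain amino acid breakdown, 1 fell in excitatory neurons and 0 rose. It was Ppm1k, the phosphatase that activates the complex of Bckdhb, at 19.7 and 16.97 CPM in knockout and 25.7 and 28.02 CPM in wildtype (-0.58 ± 0.11, edgeR adjusted p = 0.0247). Of 17 neurexins and neurexin ligands 3 fell, Lrrtm3 (-0.35 ± 0.07, adjusted p = 0.0261), Cbln2 (-0.70 ± 0.15, adjusted p = 0.0357) and Cbln4 (-1.35 ± 0.30, adjusted p = 0.0374), the last at under 5 CPM in every library. Among 14 receptor phosphatases and cadherin partners, Ptprt fell to 457 and 458 CPM in knockout, against 612 and 655 CPM in wildtype (-0.50 ± 0.07, adjusted p = 0.00445), and Ptprg fell as well (-0.37 ± 0.07, adjusted p = 0.0202). Ctnnd2, a catenin, fell in inhibitory neurons (-0.25 ± 0.06, adjusted p = 0.0499). Kcnq3, a potassium channel of the axon initial segment, fell in excitatory neurons (-0.35 ± 0.06, adjusted p = 0.0174). No gene was called on the lists for cytochrome b5 partners, myosins with the WAVE complex, or phosphoinositide enzymes, in either class.

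Of 36 protein-coding genes flanking the 9, 30 were tested in excitatory neurons and 1 was called, against 4.69% of all genes. It was 1110032F04Rik, 243 kb from Schip1 with Il12a nearer, at 1.38 and 1.46 CPM in knockout and 2.90 and 2.52 CPM in wildtype (-0.96 ± 0.22, edgeR adjusted p = 0.0474). In inhibitory neurons 0 of 27 were called, against 1.05% of all genes. Both counts are a description. Around Cyb5a, Dipk1c, Gm17266 and Fbxo15 had too few inhibitory UMIs to be tested. Dipk1c had 1.81 and 4.61 CPM in knockout and 1.05 and 1.32 CPM in wildtype, and Gm17266, 1.99 kb away, 0.602 and 1.44 CPM in knockout and 0 in both wildtype libraries. Fbxo15 had 0.301 and 0.865 CPM in knockout and 1.84 and 1.58 CPM in wildtype. Gm16146, which overlaps Cyb5a on the other strand, had 2.11 and 4.32 CPM in knockout and 0.526 and 0 CPM in wildtype, also untested. The nearest flanking gene tested in both classes, Ksr2, 6.03 kb from Nos1, had -0.04 ± 0.07 in excitatory and 0.08 ± 0.09 in inhibitory neurons.

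As a description of pattern, the log2(CPM + 1) of each gene over 60 points, 15 neuron subclasses in 4 libraries that share their depth, was set against all other genes. Kcnmb2 was most like Erbb4, a marker used to name inhibitory neurons (Pearson r = 0.936), and Dusp10 (0.932). Nxph1 was most like Rab27b (0.843), Ptprm like Spock3 (0.812), Schip1 like Cacng3 (0.799), Myo16 like Thsd7a (0.789) and Inpp4b like Nrp2 (0.728). Nos1 was most like Grin3a, a marker used for Sst neurons (0.709), and Bckdhb like Arhgap12 (0.674). Cyb5a had the weakest match, Fbxo36 (0.532).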

How the data were processed

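Nuclei of 4 mouse cortex libraries, 2 animals per genotype, were analysed from the raw UMI count matrices that the authors deposited, not normalized; the submitters' processing notes name Cell Ranger 7.1.0 and mm10. Whether introns or strand were counted, and free RNA removed, is not given in the sources used here. Barcodes needed 500 UMIs, 300 genes and no more than 5% mitochondrial UMIs, and Scrublet removed 2464 doublets of 54550 barcodes (expected rate 10%, automatic threshold), and 52038 nuclei remained (scanpy 1.11.5, Python 3.11.15). Clustering used 2000 variable genes without the 9 members, Setdb1 and sex-linked genes, 30 principal components, 15 neighbours, Leiden resolution 1 and seed 1, with no integration, and inhibitory nuclei were clustered again. Clusters were named from marker lists, and 202 nuclei led by oligodendrocyte or excitatory markers were left out of the inhibitory class. Rebuilt names may differ from the study's.

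Counts were summed per library and class, or per subclass with at least 30 nuclei in every library, filtered with filterByExpr (minimum count 10), scaled by TMM and fitted with edgeR 4.0.16 (glmQLFit, glmQLFTest, genotype alone; R 4.3.3). P-values were adjusted by Benjamini-Hochberg over all genes of a class. The difference of effects was the interaction of genotype and class, with a term for the library. Printed CPM carry no TMM factor. DESeq2 1.42.0, other filters and scalings, and leaving out each library were tried. The fits were tested on simulated data.

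The members and lists were chosen with earlier results of these data known. All 9 members are named, with the genes most like each in pattern (at least 5 CPM) and up to 3 called genes per list with the smallest p. A result that this rule would name is not reported here. The flanking and overlapping genes and the Meis2 Pbx3 cluster were added after the data were seen. Annotation came from GENCODE vM21 (GRCm38), which matched 32235 of 32285 identifiers, and promoters from RefSeq.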

Additional observations from a re-analysis of the deposited data

Results flagged for a closer look

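The genotype effect differed between neuron classes for all 9 genes, by the term for that difference, which is also what they were chosen by. These values, excitatory minus inhibitory log2 fold change, are given as a description with no test. They were 1.41 for Nos1, 1.06 for Kcnmb2, 0.82 for Bckdhb, 0.57 for Myo16, 0.47 for Inpp4b, -0.57 for Ptprm, -0.59 for Nxph1, -0.70 for Schip1 and -1.48 for Cyb5a. Nos1, Kcnmb2, Bckdhb, Myo16 and Inpp4b had a positive estimate in excitatory and a negative one in inhibitory neurons. Schip1 had the opposite pair of signs. Ptprm and Nxph1 were negative in both classes and Cyb5a positive in both. The negative inhibitory estimate of Nos1 rested on the small Sst sub-cluster led by that gene.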

How the results depend on the processing

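Each of the 9 differences between classes kept its sign under 10 alternatives, and the calls were lost for Kcnmb2 and Inpp4b with DESeq2 (1.03 and 0.45) and for Inpp4b without wildtype replicate 2 (0.42). Counts of genes called moved more than the effects. With no low-count filter 282 genes were called in excitatory neurons, where 897 were in the reported fit, 1 in inhibitory neurons (148), and 1 and 0 of the pathway genes (12 and 2). DESeq2 called 73 genes in inhibitory neurons, 37 for the difference (175), 0 pathway genes in inhibitory neurons and 1 inhibitory subclass share (0). Leaving out 1 library gave 726 to 2666 genes in excitatory neurons, 0 to 369 in inhibitory neurons, 86 to 305 for the difference, 14 to 32 member effects by subclass (18), 0 to 1 member in glia (0), 7 to 24 and 0 to 2 pathway genes, and 0 to 1 share in either class. The excitatory share was that of the Ndst4 Abi3bp cluster, in opposite directions. Its log2 fold change was -0.83 without knockout replicate 1 and 0.28 without knockout replicate 2. The highest count in excitatory neurons came without knockout replicate 1. One inhibitory pathway gene was called with DESeq2 size factors, without the nuclei of highest doublet score, or with clusters made with the members; the second of these also gave 1 member call in glia. At a fixed mix, leaving out 1 library gave 0.24 to 0.96 for excitatory Nos1 (0.64) and -1.09 to -0.30 for inhibitory Nos1 (-0.64), 0.50 to 0.96 for excitatory Kcnmb2, 0.77 to 0.90 for Bckdhb and -0.86 to -0.54 for Ptprm, and in inhibitory neurons 1.61 to 1.79 for Cyb5a, -0.0917 to 0.0251 for Bckdhb and -0.28 to -0.13 for Ptprm. Myo16 in the Meis2 Pbx3 cluster had -1.38 without knockout replicate 1 and 0.68 without knockout replicate 2, where -0.01 was reported. Apart from the low-count filter and the left-out libraries, which change how many genes or samples enter, the cause was not tested. The labels do not say that replicate numbers pair the animals, and the correlation of same-numbered deviations was 0.634 in excitatory and 0.337 in inhibitory neurons. With the replicate number as a block 2909 genes were called in excitatory and 856 in inhibitory neurons, 34 member effects by subclass, 4 members in glia, 34 and 15 pathway genes, and 1 excitatory share, L2/3 IT (0.19). That block also called Nos1 in excitatory (0.70), inhibitory (-0.66) and Sst neurons (-1.06), Inpp4b in excitatory neurons (0.25) and Kcnmb2 in inhibitory neurons (-0.22). The numbers coincide with the sex-linked pattern, so the block and that pattern cannot be told apart. With 2 animals per genotype, small shares and low levels, such as excitatory Nos1 and Kcnmb2, are the least certain.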
